A study of Homo sapiens with 12 samples.

Results

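The genes examined were 10 components of TGF-beta and BMP signalling: the receptors ACVR2B, TGFBR1, BMPR1A and BMPR2, the signal transducers SMAD2, SMAD4 and SMAD5, and the transcriptional regulators ID1, ID2 and ID3. Every probe that the array's platform annotation assigned to one of these symbols was taken, which gave 9 probes of 7 genes among the 15329 probes and 9647 named genes of the deposited table. BMPR2 and ID2 had 2 probes each and ACVR2B, SMAD4, SMAD5, ID1 and ID3 had 1 each. TGFBR1, BMPR1A and SMAD2 had 0 named probes in the table, in which 2895 probes carried no gene symbol, and their levels are not reported here.

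The samples came from HEK293T, a human line of embryonic kidney origin in which the large T antigen of SV40 is expressed. A microRNA (miRNA) is a short RNA that guides Argonaute proteins to mRNAs, mainly through its seed at the 5′ end. In every group the cells had received 200 pmol of a synthetic biotinylated miRNA duplex, which was miR-199a-5p in 2 groups and miR-424-3p in the other 2, delivered with HiPerFect, and were collected 24 h later. In the pull-down groups the duplex and the RNA attached to it were recovered on streptavidin beads, whereas the input groups held RNA of cells given the same duplex with no capture step. There were 3 arrays (Illumina HT-12) in each of the 4 groups, and cells without duplex are not analysed here.

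In this pathway a ligand of the TGF-beta, activin or BMP family brings together type II and type I serine/threonine kinase receptors, and the activated type I receptor phosphorylates receptor-regulated SMADs. These join the common partner SMAD4, enter the nucleus and change transcription, and the ID genes are among the best-known targets of the BMP branch. ID proteins have a helix-loop-helix but no basic DNA-binding region, so they hold E proteins in dimers that cannot bind DNA.

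The mature strands of the miRNAs are shown because each pull-down is named by one of them. They were taken from RefSeq (GRCh38.p14), since the exact oligonucleotides of the duplexes were not used here. Capitals mark the seed, bases 2 to 8 from the 5′ end.
hsa-miR-199a-5p: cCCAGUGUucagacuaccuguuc
hsa-miR-424-3p: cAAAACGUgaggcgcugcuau
The strand of miR-199a-5p, 23 bases long, is encoded by MIR199A1 on the minus strand of chromosome 19 (chr19:10817469-10817491) and by MIR199A2 on the minus strand of chromosome 1 (chr1:172144592-172144614). The strand of miR-424-3p, 21 bases long, comes from MIR424 on the minus strand of chromosome X (chrX:134546644-134546664). The seeds differ, and an mRNA site fully paired to bases 2 to 8 would read ACACUGG for miR-199a-5p and ACGUUUU for miR-424-3p. Transcripts were not searched for either site.

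All values below are normalized log2 signals, on which 1 unit is a doubling except at low signal, where the authors' transformation compresses differences and folds are understated. The arrays had been normalized to one another, with medians between 9.149 and 9.208, so higher and lower are relative to the other probes and not to an amount of RNA. The RNA was that of many cells, so fewer cells with a transcript and less of it per cell cannot be told apart. A probe's level was compared between groups and not with the level of another probe. Arrays of one group correlated at 0.983 to 0.994 across all probes, no pair of arrays was identical, and the 3 arrays per group limit the precision. Of 9 genes known from the HEK293 lineage, 7 had a probe, with mean input levels from 8.57 to 13.84. The lowest of all values was 7.56. Of 13 fibroblast, blood and endothelial markers the table named a probe of COL1A1 only, at 7.96. Differences are given as log2 values ± SE, and adjusted p-values come from limma, one-sided in each direction for the pull-downs and two-sided for the inputs, with the Benjamini-Hochberg adjustment over all 15329 probes.

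The comparison of each pull-down with its input asks which probes read higher or lower after the streptavidin step. No pull-down from cells without duplex was compared. RNA bound by the duplex therefore cannot be told apart from RNA kept by the beads. With miR-199a-5p, 3 of the 9 probes were higher in the pull-down (ACVR2B, SMAD5 and 1 of the 2 BMPR2 probes), 1 was lower (1 of the 2 ID2 probes) and 5 were not called. Over all probes of the array 25.6% were higher and 25.9% lower. For miR-424-3p, 6 probes were higher (ACVR2B, both BMPR2 probes, SMAD4, SMAD5 and ID1), 2 were lower (both ID2 probes) and the ID3 probe was not called, where 26.3% of all probes were higher and 28.8% lower. The median log2 difference of the 9 probes was -0.07 for miR-199a-5p and 0.42 for miR-424-3p, beside 0.00 and -0.02 over all probes. The members, and the lists used further on, were chosen with earlier results of these data known. Their counts and medians beside all probes or genes, here and below, therefore only describe them and test nothing about them as a set.

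**Figure D1:**
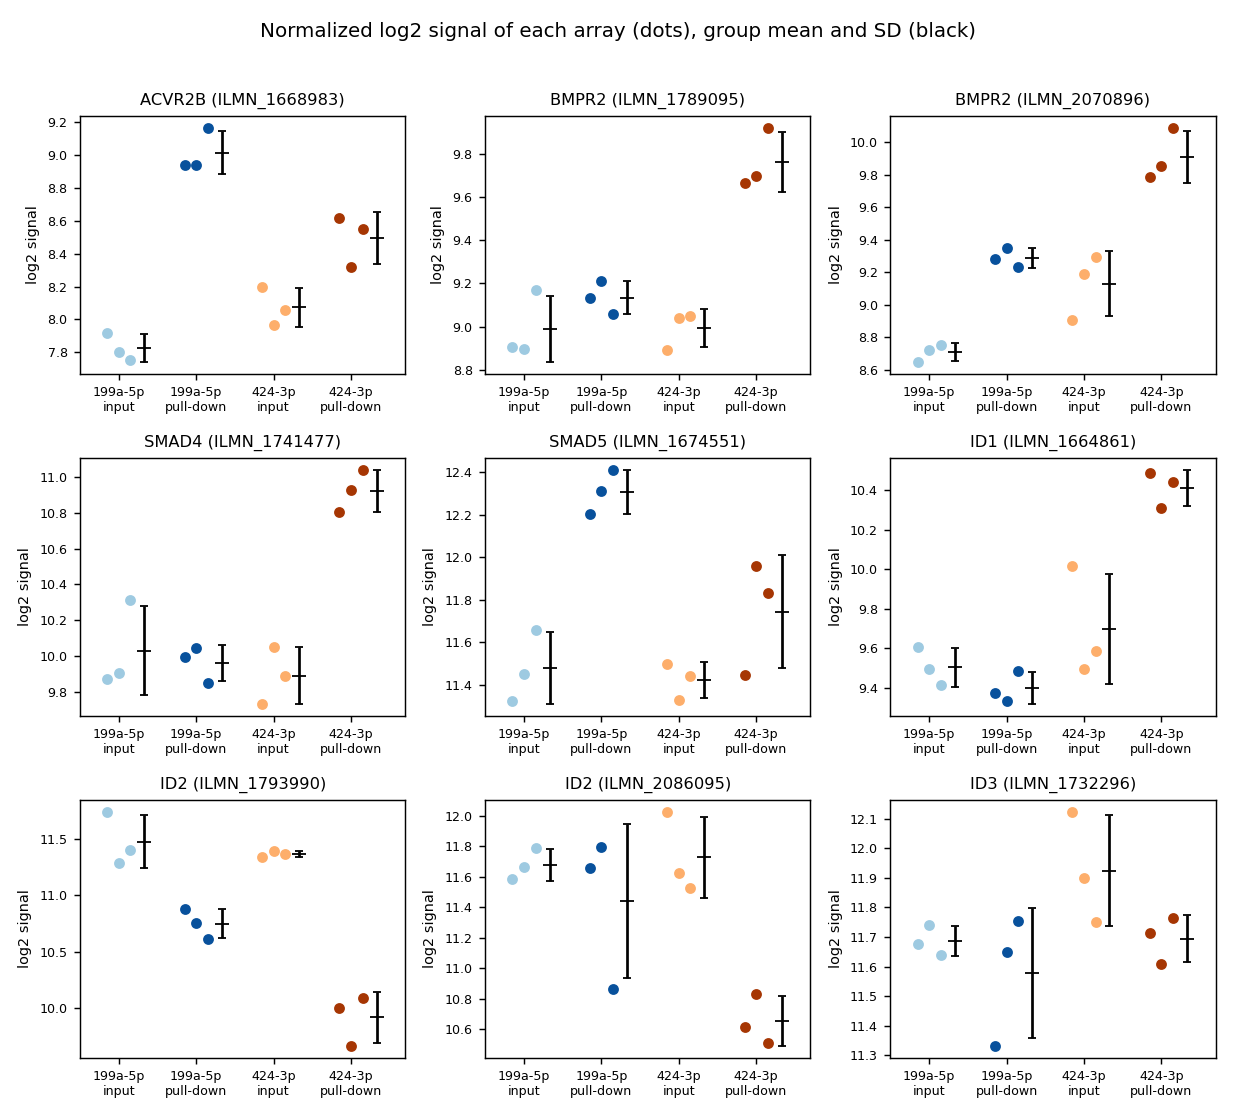
Normalized log2 signal (vertical axes, scaled separately) of the 9 probes on each of the 12 arrays (dots), with the group mean and SD (black). ACVR2B lay between 8.94 and 9.17 in the miR-199a-5p pull-downs, above all other arrays, and SMAD4 between 10.80 and 11.04 in the miR-424-3p pull-downs, above all others.

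ACVR2B is a type II receptor for activins and related ligands. Its probe (ILMN_1668983) read 8.94, 8.94 and 9.17 in the pull-downs of miR-199a-5p and 7.92, 7.81 and 7.75 in their inputs. It read 8.62, 8.32 and 8.55 in the miR-424-3p pull-downs and 8.20, 7.97 and 8.06 in their inputs. In both cases every pull-down array lay above every input array, and the miR-199a-5p pull-downs were the highest of the 4 groups. The enrichment was 1.19 ± 0.105 for miR-199a-5p (adjusted p = 1.84e-06). For miR-424-3p it was 0.42 ± 0.105 (adjusted p = 0.00372). The inputs lay near the low end of the scale, at a level like that of COL1A1, where differences are compressed, and whether the probe was above background in them is not known here, so no fold is given.

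BMPR2, a type II receptor for BMPs, was read by 2 probes. The probe ILMN_2070896 read 9.28, 9.35 and 9.23 in the miR-199a-5p pull-downs against 8.65, 8.72 and 8.75 in the inputs, and 9.79, 9.86 and 10.09 in the miR-424-3p pull-downs against 8.91, 9.19 and 9.30. Neither pair of groups overlapped, and the miR-424-3p pull-downs were the highest. The enrichments were 0.58 ± 0.109 for miR-199a-5p (adjusted p = 0.000576) and 0.78 ± 0.109 for miR-424-3p (adjusted p = 3.3e-05).

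The other BMPR2 probe (ILMN_1789095) gave the same picture for miR-424-3p but not for miR-199a-5p. It read 9.67, 9.70 and 9.92 in the miR-424-3p pull-downs and 8.89, 9.04 and 9.05 in their inputs, an enrichment of 0.77 ± 0.102 (adjusted p = 2.03e-05). In the pull-downs of miR-199a-5p it read 9.13, 9.21 and 9.06 and in their inputs 8.91, 8.89 and 9.17, so these groups overlapped. The difference of 0.15 ± 0.102 was not called (adjusted p = 0.256, 95% confidence interval -0.07 to 0.36). With array weights it was called, at 0.24 (adjusted p = 0.024), and so was the mean of the 2 probes, at 0.36 (adjusted p = 0.00801). Whether the probes read the same transcripts was not examined.

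SMAD4 is the common partner of the receptor-regulated SMADs. Its probe (ILMN_1741477) read 10.80, 10.93 and 11.04 in the miR-424-3p pull-downs and 9.73, 10.05 and 9.89 in their inputs. It read 9.99, 10.04 and 9.85 in the pull-downs of miR-199a-5p and 9.87, 9.90 and 10.32 in their inputs. Only the miR-424-3p pull-downs stood apart, while the other 3 groups overlapped. The enrichment with miR-424-3p was 1.03 ± 0.125 (2.05-fold, adjusted p = 7.96e-06). With miR-199a-5p the difference was -0.07 ± 0.125 and was not called in either direction, with a confidence interval of -0.34 to 0.20. Its sign rested on the third input array, without which it was 0.07.

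SMAD5 is a receptor-regulated SMAD of the BMP branch. Its probe (ILMN_1674551) read 12.21, 12.31 and 12.41 in the pull-downs of miR-199a-5p and 11.32, 11.45 and 11.66 in their inputs, with no overlap. The enrichment was 0.83 ± 0.127 (1.78-fold, adjusted p = 0.000118). In the miR-424-3p pull-downs it read 11.45, 11.96 and 11.83 and in their inputs 11.50, 11.33 and 11.44, so that the first pull-down array lay within the range of the inputs. The smaller enrichment of 0.32 ± 0.127 passed the threshold narrowly (adjusted p = 0.0459). It was not called without pull-down array 2 (0.22, adjusted p = 0.205) or 3 (0.28, adjusted p = 0.14), nor without input array 1 (0.36, adjusted p = 0.0523), 2 (0.28, adjusted p = 0.143) or 3 (0.33, adjusted p = 0.0848).

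ID1, a target of the BMP branch, was called with miR-424-3p only. Its probe (ILMN_1664861) read 10.48, 10.31 and 10.44 in the miR-424-3p pull-downs and 10.02, 9.49 and 9.59 in their inputs, and 9.38, 9.33 and 9.49 in the miR-199a-5p pull-downs against 9.61, 9.49 and 9.41. The miR-424-3p pull-downs lay above all other arrays, and the highest of their inputs was 1 array that stood above the others. The enrichment was 0.71 ± 0.121 for miR-424-3p (adjusted p = 0.000192). For miR-199a-5p the difference was -0.10 ± 0.121 and was not called (confidence interval -0.36 to 0.15).

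ID2, another member of the ID family, was the only one of the 7 genes with probes lower in a pull-down. Its probe ILMN_1793990 read 10.00, 9.67 and 10.09 in the miR-424-3p pull-downs and 11.34, 11.40 and 11.37 in their inputs. It read 10.88, 10.76 and 10.62 in the pull-downs of miR-199a-5p and 11.74, 11.29 and 11.40 in their inputs. The inputs of both miRNAs overlapped, the miR-199a-5p pull-downs lay below them, and the miR-424-3p pull-downs lay lower still. The difference was -1.45 ± 0.13 for miR-424-3p (2.73-fold lower, adjusted p = 5.8e-07), 224th from the bottom of all probes, and -0.73 ± 0.13 for miR-199a-5p (1.65-fold lower, adjusted p = 0.00032).

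The ID2 probe ILMN_2086095 was also lower with miR-424-3p, at 10.61, 10.83 and 10.51 in the pull-downs and 12.03, 11.62 and 11.53 in the inputs. These groups did not overlap, and the difference was -1.07 ± 0.198 (adjusted p = 0.000354). With miR-199a-5p it read 11.66, 11.80 and 10.86 in the pull-downs and 11.58, 11.66 and 11.79 in the inputs. A single pull-down array, the third, lay below the inputs, and the difference of -0.24 ± 0.198 was not called (adjusted p = 0.335). Without that array it was 0.05.

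ID3, also of the ID family, was not called in either pull-down. Its probe (ILMN_1732296) read 11.33, 11.65 and 11.75 in the miR-199a-5p pull-downs against 11.68, 11.74 and 11.64, and 11.71, 11.61 and 11.76 in the miR-424-3p pull-downs against 12.12, 11.90 and 11.75. Pull-down and input overlapped for both miRNAs. The differences were -0.11 ± 0.118 for miR-199a-5p (confidence interval -0.36 to 0.14) and -0.23 ± 0.118 for miR-424-3p (confidence interval -0.48 to 0.02, adjusted p = 0.107).

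**Figure D2:**
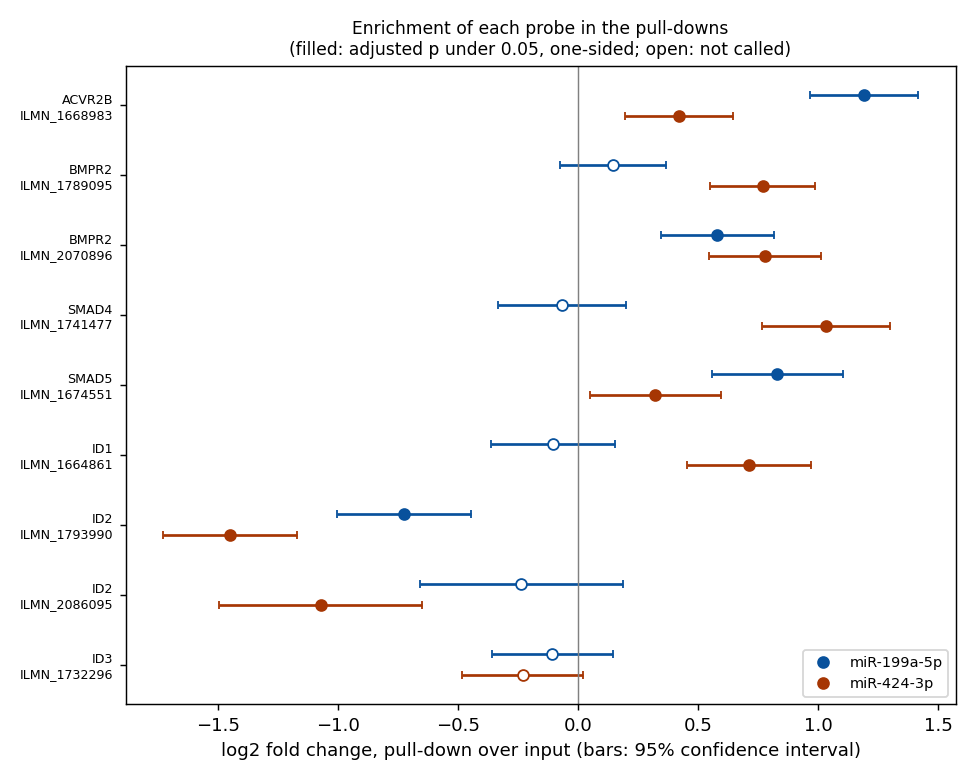
Log2 difference between pull-down and input for each of the 9 probes (points) with the 95% confidence interval (bars), filled where the adjusted p was under 0.05. ACVR2B had the largest value with miR-199a-5p (1.19), SMAD4 the largest with miR-424-3p (1.03), and both ID2 probes were below 0 with either miRNA.

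Counted by arrays that did not overlap, all pull-downs lay above all inputs for 3 probes with miR-199a-5p and for 5 with miR-424-3p, and below them for 1 and 2. Over all probes this held for 28.2% above and 29.5% below with miR-199a-5p, and for 30.1% and 33.6% with miR-424-3p.

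The comparison of the enrichments asks whether a probe's difference between pull-down and input depended on the miRNA. In limma's interaction test 4 of the 9 probes were more enriched, or less depleted, with miR-199a-5p than with miR-424-3p, 3 were the reverse and 2 were not called. Over all probes these shares were 18.8% and 18.0%. The members thus moved in both directions, and their median difference was 0.12 beside 0.01 over all probes.

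Among the receptors, the ACVR2B enrichment was larger with miR-199a-5p by 0.77 ± 0.149 (adjusted p = 0.00135). The BMPR2 probe ILMN_1789095 was more enriched with miR-424-3p, with a difference of -0.62 ± 0.145 (adjusted p = 0.00378). For the BMPR2 probe ILMN_2070896 the difference was -0.20 ± 0.155 and was not called (confidence interval -0.53 to 0.13). ACVR2B and BMPR2 therefore lay on opposite sides, the latter by 1 of its 2 probes. As the mean of both probes, the BMPR2 difference was -0.41 (adjusted p = 0.035).

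The SMADs also lay on opposite sides. SMAD4 had the largest difference of the 9 probes, -1.10 ± 0.176 (adjusted p = 0.000242), with the enrichment on the side of miR-424-3p. SMAD5 differed by 0.51 ± 0.18 toward miR-199a-5p (adjusted p = 0.0388), a call that was lost with median scaling (0.48, adjusted p = 0.0544), with cyclic loess (0.48, adjusted p = 0.0514) and on leaving out any of 7 arrays.

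ID1 differed by -0.82 ± 0.172, being more enriched with miR-424-3p (adjusted p = 0.0019). ID2 was depleted less with miR-199a-5p, by 0.73 ± 0.183 for the probe ILMN_1793990 (adjusted p = 0.00724) and by 0.84 ± 0.279 for ILMN_2086095 (adjusted p = 0.0305). The second of these calls was lost on leaving out any of 7 arrays, with values from 0.66 to 0.83. For ID3 the difference was 0.12 ± 0.166 and was not called (confidence interval -0.24 to 0.48). The members of the ID family thus differed from one another, with ID1 and ID2 called in opposite directions.

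The input RNA of the 2 transfections was compared because the inputs enter both enrichments and their difference. In limma's two-sided test 0 of the 9 probes were called, and 0.00652% of all probes were higher and 0.0130% lower in the miR-199a-5p inputs. At an unadjusted p under 0.05, 2 of the 9 were lower (ACVR2B and the BMPR2 probe ILMN_2070896), as were 647 of all probes, while 0 of the 9 and 635 of all probes were higher. The BMPR2 probe ILMN_2070896 had the largest difference, -0.42 ± 0.109 (adjusted p = 0.327), and ACVR2B stood at -0.25 ± 0.105 (adjusted p = 0.548). With array weights this BMPR2 probe was called lower, at -0.48 (adjusted p = 0.0131). For 3 probes (these 2 and ID3) every miR-199a-5p input lay below every miR-424-3p input, beside 7.82% of all probes, and the reverse held for 0 of the 9 and for 6.42% of all probes. The inputs of SMAD4, SMAD5, ID1, ID2 and the other BMPR2 probe overlapped between the miRNAs.

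**Figure D3:**
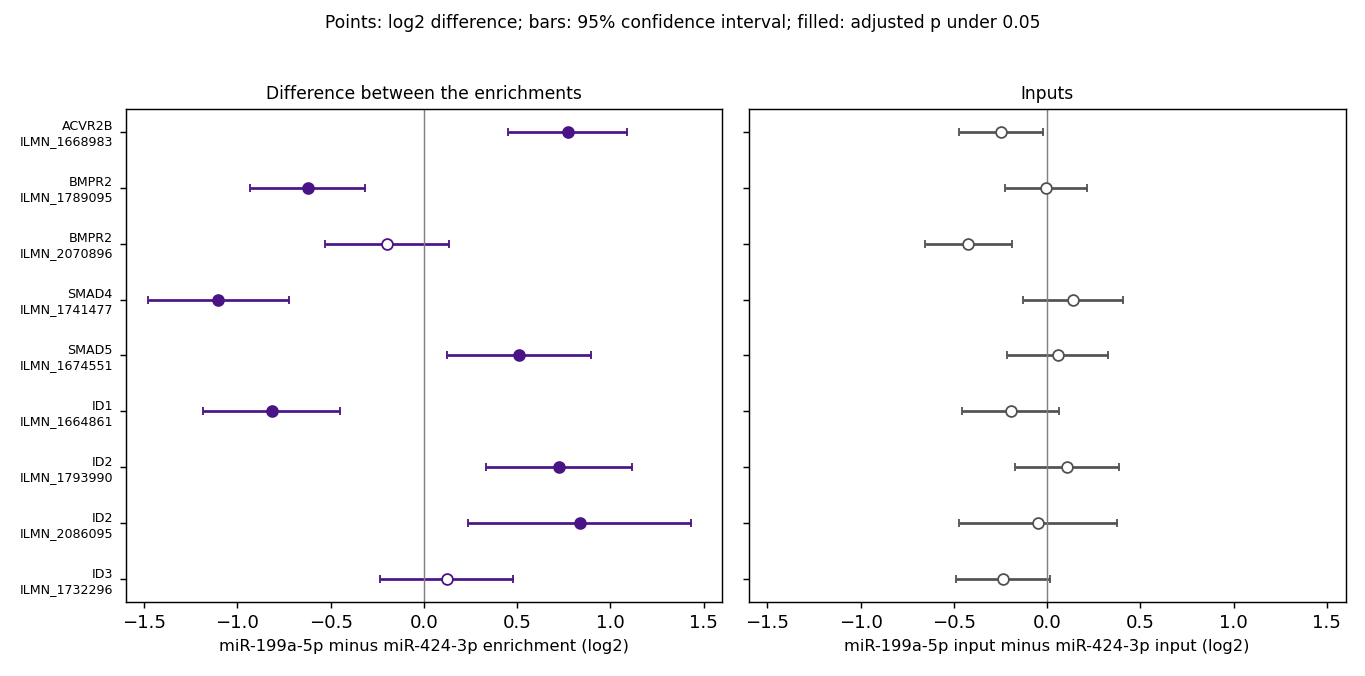
Left, miR-199a-5p enrichment minus miR-424-3p enrichment, and right, miR-199a-5p input minus miR-424-3p input, as log2 differences (points) with 95% confidence intervals (bars), filled where the adjusted p was under 0.05. In the left panel SMAD4 (-1.10), ID1 (-0.82) and 1 BMPR2 probe (-0.62) lie toward miR-424-3p and ACVR2B (0.77), SMAD5 (0.51) and ID2 (0.73 and 0.84) toward miR-199a-5p, whereas no point of the right panel is filled.

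The other genes of the pathway were read from 8 lists of ligands, receptors, SMADs, inhibitors, regulators, partners and targets, which named 142 genes besides the members. A probe was present for 80 of them, and each gene was represented by its brightest probe. With miR-199a-5p 33 were higher and 11 lower, whereas in the miR-424-3p pull-down 37 were higher and 11 lower. Over all 9647 genes represented in the same way, 29.9% were higher and 20.1% lower with miR-199a-5p, and 30.3% and 25.7% with miR-424-3p. The medians were 0.11 and 0.22 for the 80 genes, and 0.06 and 0.03 over all genes. The difference between the enrichments was called toward miR-199a-5p for 10 of the 80 and toward miR-424-3p for 20, beside 20.9% and 18.1% of all genes. At an unadjusted p under 0.05 these counts were 18 and 28, beside 4259 and 3979 of all 15329 probes. That background counts every probe and not genes by their brightest probe, for which no such count was made. It is also the only background for the unadjusted counts of the difference in the lists below. In the inputs 0 of the 80 were called in limma's test, beside 0.0104% of all genes higher and 0.0104% lower, and 3 were higher and 4 lower at an unadjusted p under 0.05.

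Of the 5 measured ligands, 2 were higher with miR-199a-5p against 3 with miR-424-3p, with medians of 0.08 and 0.35. GDF11, a ligand of activin receptors, was enriched by 1.04 ± 0.0898 with miR-199a-5p and by 0.41 ± 0.0898 with miR-424-3p, but its dimmer probe stood at -0.32 (called lower) and -0.23 (not called). BMP7, which signals through BMPR2 and activin type II receptors, had the opposite order, with 0.33 ± 0.101 for miR-199a-5p and 0.94 ± 0.101 for miR-424-3p, and BMP6 was enriched by 0.35 ± 0.0786 with miR-424-3p. For 1 ligand in each direction the difference between the enrichments was called, GDF11 at 0.63 ± 0.127 and BMP7 at -0.61 ± 0.143, and the dimmer GDF11 probe was not called, at -0.09.

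Of the 10 other receptors and co-receptors, 7 were higher and 1 lower with miR-199a-5p, whereas in the miR-424-3p pull-down 5 were higher and 2 lower, with medians of 0.51 and 0.35. The largest differences in both pull-downs belonged to the same 3 genes: neogenin (NEO1), a receptor for the RGM proteins, and RGMA and RGMB, which act as BMP co-receptors. With miR-199a-5p NEO1 was enriched by 0.89 ± 0.129, RGMA by 0.88 ± 0.123 and RGMB by 0.76 ± 0.0875. With miR-424-3p RGMA was enriched by 1.19 ± 0.123, NEO1 by 1.10 ± 0.129 and RGMB by 1.10 ± 0.0875. Adjusted p-values of these 6 differences lay between 1.76e-07 for RGMB with miR-424-3p and 7.69e-05 for NEO1 with miR-199a-5p. The difference between the enrichments was called toward miR-199a-5p for 2 of the 10 genes and toward miR-424-3p for 1, which was RGMB (-0.34 ± 0.124, adjusted p = 0.0438), whereas RGMA (-0.31 ± 0.175) and NEO1 (-0.21 ± 0.183) were not called.

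Of the 4 other SMADs measured, 2 were higher with miR-199a-5p against 3 with miR-424-3p, and the medians were 0.26 and 0.50. SMAD6, an inhibitory SMAD, was enriched by 0.75 ± 0.107 with miR-199a-5p and by 0.41 ± 0.107 with miR-424-3p. SMAD3, a receptor-regulated SMAD of the TGF-beta and activin branch, was enriched by 0.39 ± 0.155 (adjusted p = 0.0463) and by 0.59 ± 0.155. SMAD7, the other inhibitory SMAD, was enriched by 0.78 ± 0.106 with miR-424-3p and by 0.86 ± 0.142 at its dimmer probe, and neither probe was called with miR-199a-5p. Among the 4, the difference between the enrichments was called by limma for SMAD7 alone, at -0.65 ± 0.15, and at an unadjusted p under 0.05 for 2 toward miR-424-3p and 1 toward miR-199a-5p.

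Of the 6 extracellular inhibitors and latency proteins measured, 1 was higher with miR-199a-5p against 2 with miR-424-3p, with a median of 0.21 in both. FSTL1, a secreted follistatin-like protein, averaged 9.63 ± 0.17 in the miR-424-3p inputs and 11.11 ± 0.14 after capture (SD, n = 3 each), an enrichment of 1.48 ± 0.116. In the miR-199a-5p groups it was 9.75 ± 0.20 and 9.86 ± 0.03 (SD, n = 3 each) and was not called, and its difference between the enrichments was -1.38 ± 0.163 (adjusted p = 2e-05). No other gene of this list was called in the difference, in which 2 lay toward miR-199a-5p and 1 toward miR-424-3p at an unadjusted p under 0.05. FSTL3, a secreted binder of activins, was enriched by 0.56 ± 0.102 with miR-199a-5p and by 0.40 ± 0.102 with miR-424-3p. Its inputs averaged 7.86 and 7.99, near the low end of the scale, where differences are compressed. Whether it was above background in them is not known here.

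Of the 24 SMAD regulators measured, 12 were higher and 4 lower with miR-199a-5p, whereas in the miR-424-3p pull-down 6 were higher and 6 lower, with medians of 0.26 and 0.01. LEMD3, an inner nuclear membrane protein that binds receptor-regulated SMADs, was enriched by 1.15 ± 0.119 with miR-199a-5p and TGIF2, a transcriptional corepressor of SMADs, by 1.03 ± 0.108. Both also had higher means after capture with miR-424-3p (SD, 3 arrays each). LEMD3 went from 9.49 ± 0.10 to 10.08 ± 0.10 and TGIF2 from 9.84 ± 0.15 to 10.48 ± 0.09. With miR-424-3p the SUMO ligase PIAS4 was enriched by 1.75 ± 0.143 and the phosphatase CTDSP1 by 1.04 ± 0.133, although the dimmer CTDSP1 probe was not called at -0.07. These 2 genes were also called higher with miR-199a-5p, PIAS4 at 0.62 ± 0.143 and CTDSP1 at 0.66 ± 0.133. The dimmer CTDSP1 probe was not called there, at -0.22. FKBP1A, which binds type I receptors and holds them inactive, was the largest depletion in both, at -1.02 ± 0.166 with miR-199a-5p against -0.93 ± 0.166 with miR-424-3p. Its 3 other probes were lower with miR-424-3p, by values from -1.77 to -0.98, and with miR-199a-5p 2 of them were lower and 1 was not called at -0.06. For 7 regulators the difference between the enrichments was called toward miR-199a-5p, and for 2 toward miR-424-3p. It was -1.14 ± 0.203 for PIAS4 and 0.57 ± 0.169 for LEMD3, both called, while the dimmer LEMD3 probe, at 0.47 ± 0.184, was not.

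Of 13 partners of SMADs in transcription, 5 were higher and 3 lower with miR-199a-5p, whereas in the miR-424-3p pull-down 7 were higher and 2 lower, with medians of 0.05 and 0.28. The difference between the enrichments was called by limma toward miR-424-3p for 7 and toward miR-199a-5p for 0, and at an unadjusted p under 0.05 these counts were 7 and 1. Of all 15329 probes, 3979 and 4259 passed that unadjusted threshold in these directions. With miR-424-3p the acetyltransferase EP300 was enriched by 1.92 ± 0.0951, E2F4, a transcription factor that represses MYC together with SMAD3, by 1.92 ± 0.138 and the Mediator subunit MED15 by 1.79 ± 0.0965. With miR-199a-5p the values were 0.97 ± 0.138 for E2F4 and 0.53 ± 0.0824 for the transcription factor SP1, and E2F5, a relative of E2F4, was lower at -1.25 ± 0.149. E2F5 was not lower with miR-199a-5p alone. In the miR-424-3p groups it averaged 10.98 ± 0.19 before and 9.66 ± 0.24 after capture (SD, 3 arrays each). The differences between the enrichments were -1.39 ± 0.134 for EP300, -1.74 ± 0.136 for MED15, -0.95 ± 0.196 for E2F4 and -0.75 ± 0.117 for SP1.

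Of 17 target genes, 4 were higher and 2 lower with miR-199a-5p, whereas in the miR-424-3p pull-down 10 were higher and 1 lower, with medians of 0.04 and 0.41. The difference between the enrichments was called by limma toward miR-424-3p for 6 and toward miR-199a-5p for 0, or for 9 and 1 at an unadjusted p under 0.05. At that unadjusted threshold 3979 of all 15329 probes lay toward miR-424-3p and 4259 toward miR-199a-5p. CCN2, a secreted matrix-associated protein, was enriched by 1.00 ± 0.233 with miR-199a-5p, where MYC, which TGF-beta represses in many epithelial cells, was lower at -0.58 ± 0.133. The dimmer MYC probe was not called there, at -0.17. With miR-424-3p MYC was enriched by 1.66 ± 0.133, and the Notch and BMP targets HEY1 and HES1 by 1.16 ± 0.0911 and 1.05 ± 0.126. CCN2 averaged 9.90 ± 0.35 before and 10.44 ± 0.26 after capture with miR-424-3p (SD, 3 arrays each). Its dimmer probe was not called there, at 0.35. HES1 averaged 8.97 ± 0.09 before and 9.51 ± 0.15 after capture with miR-199a-5p (SD, 3 arrays each). The dimmer probe of HEY1 was not called with miR-424-3p, at 0.16, and was lower with miR-199a-5p, at -0.85.

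The E proteins, the dimer partners of the ID proteins, were measured together with ID4, and 3 of these 4 genes were higher with miR-424-3p (median 0.56), against 1 higher and 1 lower with the other miRNA (median -0.04). TCF3 was enriched by 0.94 ± 0.0847, TCF12 by 0.64 ± 0.0967 and TCF4 by 0.48 ± 0.0847. With miR-199a-5p TCF4 was higher at 0.66 ± 0.0847 and TCF12 lower at -0.36 ± 0.0967, although the dimmer TCF12 probe was not called at -0.14. The TCF3 level was 10.57 ± 0.12 before and 10.49 ± 0.07 after capture with miR-199a-5p, and 10.68 ± 0.06 and 11.62 ± 0.01 with miR-424-3p (SD, 3 arrays each). The difference between the enrichments was -1.03 ± 0.12 for TCF3 and -1.01 ± 0.137 for TCF12, the 2 of these 4 genes that were called, and 0.17 ± 0.12 for TCF4, not called.

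**Figure D4:**
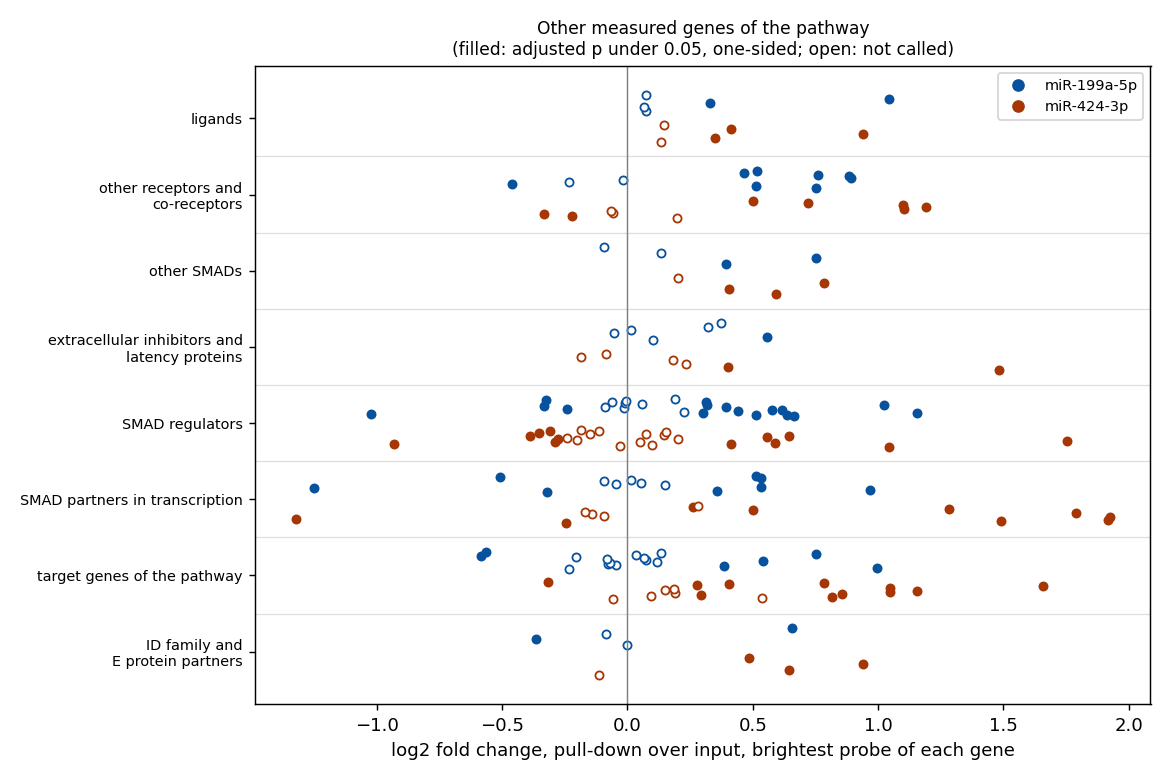
Log2 difference between pull-down and input (horizontal axis) for the 80 other measured genes of the pathway, 1 point per gene and miRNA, by list, filled where the adjusted p was under 0.05. The largest enrichments are those of EP300 (1.92), E2F4 (1.92), MED15 (1.79) and PIAS4 (1.75) with miR-424-3p, and genes that belong to 2 lists are drawn in both.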

How the data were processed

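The authors deposited normalized log2 values for the 12 arrays, made with lumi (version 2.2.1 per the labels' processing notes); per the study's methods they background-adjusted, variance-stabilized and robust-spline-normalized the signals. For this table of 15329 probes, the probe selection and the genome build are not given in the sources used here; what the study states of them concerns its other arrays and its sequencing. Another table of signals before normalization had 24 columns matching no sample label, which were not used, so no background correction or detection filter was set here. Groups came from the sample characteristics and titles. The duplex is called miR-199a-5p as in the labels, although 1 supplementary legend has miR-199b-5p. The same legend speaks of independent replicates, but the labels do not state separate cultures, so p-values measure the spread between these samples. For its other miRNAs the study compared pull-downs with mock-transfected cells, whose place the inputs took here. For the arrays of these duplexes the same legend describes a clustering of total RNA and pull-downs. It also reports that the total RNA was little affected by either duplex.

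Gene names came from the platform annotation, with 1 symbol for 12432 probes, several for 2 and none for 2895. Of these names, 12430 matched a RefSeq table (GRCh38.p14) by gene identifier, and 0 symbols changed. One limma model (version 3.58.1, R 4.3.3) with 4 group means was fitted to all 12 arrays (lmFit, eBayes, 8 residual degrees of freedom). The code was checked on simulated data with independent noise and far fewer changed probes than were called here, in 1 group. That check therefore does not show how the calls behave in these data. The threshold was an adjusted p of 0.05, one-sided as in the study's methods. Members, lists and tests were chosen with earlier results of these data known. Every member probe was named, and from each of 8 lists up to 3 called genes per pull-down with the largest absolute change. Among the list genes, values for the difference are given only for genes named by that rule, and not for all of these. The 23 alternatives are given in the closing section.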

Additional observations from a re-analysis of the deposited data

Results flagged for a closer look

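In 6 of the 7 measured genes the enrichment differed between miR-199a-5p and miR-424-3p at 1 or more probes by limma's interaction test. The test used all 12 arrays and was one-sided, with Benjamini-Hochberg over all probes. The values, miR-199a-5p enrichment minus miR-424-3p enrichment on the log2 scale, were 0.77 for ACVR2B, -0.62 for the BMPR2 probe ILMN_1789095, -1.10 for SMAD4, 0.51 for SMAD5, -0.82 for ID1, and 0.73 and 0.84 for the ID2 probes ILMN_1793990 and ILMN_2086095. For SMAD4 and ID1 the enrichment was called with miR-424-3p alone, and for ACVR2B and SMAD5 it was called with both miRNAs. BMPR2 counts by 1 of its 2 probes, since ILMN_2070896 was not called (-0.20). The calls of SMAD5 and of the ID2 probe ILMN_2086095 were each lost on leaving out any of 7 arrays. Differences of this kind were called for 18.8% of all probes in one direction and 18.0% in the other. By the brightest probe of each gene the shares were 20.9% and 18.1% of all genes. The members were chosen with earlier results of these data known, so their count only describes them. The inputs that enter each difference differed by -0.25 for ACVR2B and by less for the other 6 called probes. They differed by -0.42 for the BMPR2 probe ILMN_2070896. The pull-down means of ILMN_2070896 were 9.29 for miR-199a-5p against 9.91 for miR-424-3p, with input means of 8.71 against 9.13. For ILMN_1789095 these were 9.13 against 9.76, and 8.99 for either input. The gap between the miRNAs was thus similar in the pull-downs of the 2 probes but not in their inputs. The part of the inputs in these results was not tested.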

How the results depend on the processing

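No value of the 9 probes turned into a call in the opposite direction under the 23 alternatives. The calls held in 139 of 143 values for the miR-199a-5p comparison, 134 of 143 for miR-424-3p, 170 of 188 for the difference and 142 of 143 for the inputs. The exceptions concern BMPR2, SMAD5, ID2 and ACVR2B, and besides those given above they arose where a fold of 1.5 was also required, which removed the BMPR2 probe ILMN_2070896 with miR-199a-5p (0.58), ACVR2B with miR-424-3p (0.42) and SMAD5 with miR-424-3p and in the difference. SMAD5 with miR-424-3p was also lost after quantile normalization (0.30, adjusted p = 0.0651) and when only its 2 groups were fitted (adjusted p = 0.0549). As the mean of its probes ID2 was lower with miR-199a-5p (-0.48, adjusted p = 0.00617), and with genes in place of probes 1 member was lower with miR-424-3p. Leaving out 1 array gave 2 to 4 members toward miR-199a-5p in the difference, the lower count without miR-199a-5p pull-down 2, miR-199a-5p input 1 or 2, miR-424-3p pull-down 1 or miR-424-3p input 1.

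Over all probes, a mean of at least 9 left 2580 higher and 2307 lower for miR-199a-5p, 2618 and 2778 for miR-424-3p and 1831 lower in the difference, since fewer probes were tested; the ACVR2B probe was not among them. A fold of 1.5 left 1644 and 1778, and 1966 and 2131. For the inputs, 1 probe higher and 2 lower became 160 and 139 with array weights, which also called 1 member lower. Other settings gave 2 higher (quantile normalization), 2 and 5 (mean of at least 9), 5 lower (each tail tested) and 0 higher (only these groups, or mean of probes), and leaving out 1 array gave 0 to 3 higher and 2 to 4 lower. The cause was not tested.

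With the replicate number as a block, 4 probes were higher and 4 lower in the inputs, and no call of a member changed. Of 12 pairs of same-numbered arrays from different groups, 5 had deviations correlated over 0.1 (-0.10 to 0.51). Differently numbered arrays of the 2 input groups had correlations from -0.48 to 0.48, so the numbers were not taken to pair samples. The main model treated all arrays as independent and did not account for these correlations. No scaling moved the median of all probes by over 0.1. Slide, background correction and detection filter were not run as alternatives, because no mapped column held them. Dim probes limit what can be read, since folds near the low end are compressed.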
